A study of Mus musculus with 12 samples.

Results

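The AP-1 transcription factors Fos, Fosb, Fosl1, Fosl2, Jun, Junb, Jund and Batf were followed across 12 Affymetrix arrays of mouse splenic CD8 T cells. The members were all probe sets whose only gene symbol in the array annotation was 1 of these 8 genes. They came to 12 probe sets: Fos, Fosb, Junb and Batf had 1 each, and Fosl1, Fosl2, Jun and Jund had 2 each. The table as a whole covered 18193 genes, and 13156 genes passed a filter on low signal and were tested.

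The cells came from spleens of male mice and were purified with a CD8 T cell enrichment kit. KO cells carried Cd4-Cre and floxed Scap (Cd4-Cre/Scapfl/fl), and WT cells came from littermates with Cd4-Cre and intact Scap (Cd4-Cre/Scap+/+). Cells were activated for 6 h with plate-bound antibody to CD3 and soluble antibody to CD28 (T6) or taken quiescent (T0). The 4 groups of 3 arrays each were KO T6, KO T0, WT T6 and WT T0. Both genotypes therefore carried a Cre recombinase under the Cd4 promoter, which is active in developing T cells. The ages of the mice are not given in the sources used here. The labels call the arrays of a group biological replicates. Which arrays share a mouse is not stated, so arrays were the unit of each test. In the main fit each p-value sets a difference against the spread between arrays. That spread was pooled over the 4 groups and drawn toward that of all tested genes.

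AP-1 is a dimer of basic leucine zipper (bZIP) proteins. Jun proteins pair with each other or with Fos proteins, and the dimers bind the heptamer TGANTCA. In T cells, signals from the antigen receptor and CD28 reach Fos and Jun through MAP kinases, and AP-1 then works with NFAT factors at cytokine genes. Batf lacks a transactivation domain of the Fos kind and acts as a dimer with Jun proteins and with Irf4 in effector CD8 T cells. Fos and Jun are immediate early genes, whose transcripts appear quickly after a stimulus and turn over fast, while Fosl1 and Fosl2 transcripts appear later in many cell types.

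Promoter sequence was matched for 7 of the 8 members. It covers the 250 bases before each start in the RefSeq annotation of build GRCm38.p6. It was searched on both strands for the AP-1 heptamer TGANTCA, for its longer variant TGACNTCA, for TGACGT (the core bound by CREB and ATF proteins), for TATAAA and for the serum response element. A match to TGACNTCA whose N is G also holds TGACGT and counts for both, whereas no match to TGANTCA is itself a match to TGACNTCA or TGACGT. The promoters of Fos, Jun and Batf are shown because each holds such a match and its transcript fell on activation (Batf in WT cells), and that of Fosl2 because its transcript rose. Capitals mark the matches to TGACGT in Fos and Batf and to TGACNTCA in Jun, and no capitals mark a promoter without a match. The Fos sequence lies at chr12:85473640-85473889 (+ strand), that of Jun at chr4:95052223-95052472 (- strand), that of Batf at chr12:85686470-85686719 (+ strand) and that of Fosl2 at chr5:32136222-32136471 (+ strand).
Fos: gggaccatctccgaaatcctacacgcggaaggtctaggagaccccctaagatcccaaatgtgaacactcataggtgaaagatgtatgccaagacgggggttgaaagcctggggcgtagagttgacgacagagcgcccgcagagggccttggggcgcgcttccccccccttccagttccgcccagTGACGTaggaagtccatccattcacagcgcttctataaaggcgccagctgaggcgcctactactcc
Jun: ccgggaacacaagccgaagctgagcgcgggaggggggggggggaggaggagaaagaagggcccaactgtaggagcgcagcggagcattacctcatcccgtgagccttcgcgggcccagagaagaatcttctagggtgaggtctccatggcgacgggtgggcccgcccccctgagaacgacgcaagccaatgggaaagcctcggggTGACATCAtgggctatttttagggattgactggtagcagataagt
Batf: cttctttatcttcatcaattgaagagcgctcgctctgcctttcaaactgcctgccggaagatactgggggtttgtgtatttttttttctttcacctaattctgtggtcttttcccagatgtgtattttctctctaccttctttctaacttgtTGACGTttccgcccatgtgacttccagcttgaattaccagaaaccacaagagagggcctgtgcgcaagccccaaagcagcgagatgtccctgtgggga
Fosl2: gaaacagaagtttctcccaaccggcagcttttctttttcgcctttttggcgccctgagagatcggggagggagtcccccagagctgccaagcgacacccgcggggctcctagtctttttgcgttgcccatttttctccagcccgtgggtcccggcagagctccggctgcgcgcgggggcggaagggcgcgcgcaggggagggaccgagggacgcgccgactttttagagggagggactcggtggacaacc

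Fos held TGACGT at positions -66 to -61 from its start and TATAAA at positions -33 to -28. Batf held TGACGT at positions -98 to -93. Jun held TGACATCA, a form of TGACNTCA known as a binding site of Jun and ATF dimers, at positions -45 to -38. The promoters of Fosb, Junb and Jund, whose transcripts also fell in both genotypes, held 0 matches to TGACGT or TGACNTCA. Of 32851 mouse promoters of the same length, 6.47% held TGACGT, 7.49% held TGACNTCA and 12.4% held TATAAA. The heptamer TGANTCA was in 0 of the 7 member promoters and in 6.75% of all promoters. The serum response element was in 0 of the 7 and in 1.47% of all. Sites more than 250 bases before a start were not searched, so a gene may hold the element farther out. These matches describe letters in the window and were not tied to any measured binding.

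Signals are the linear intensities that the authors deposited, and differences are on the log2(signal + 16) scale. Array medians lay between 61.3 and 76.2, and percentile 40 of an array, the level used for the filter, lay between 34.0 and 42.7. For 7 members the tested probe set lay above that level on all 12 arrays. Fosl1 lay above it on 7 arrays, namely 3 of 3 in KO T6, 0 of 3 in KO T0, 3 of 3 in WT T6 and 1 of 3 in WT T0. It therefore entered the test only through the activated arrays, where it was high. Chromosomes in the annotation were 12 for Fos and Batf, 7 for Fosb, 19 for Fosl1, 5 for Fosl2, 4 for Jun and 8 for Junb and Jund.

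Markers described the cells as follows, in summed linear signal. The 10 measured CD8 T cell markers summed to 55969 to 68834 in KO T6, 77750 to 90130 in KO T0, 77825 to 86757 in WT T6 and 94440 to 114386 in WT T0. Cd4 itself lay below the filter level on all 12 arrays, as did Ncr1, the gene of an NK cell receptor. The 12 B cell markers summed to 6887 to 14068 in KO T6, 11167 to 23214 in KO T0, 2083 to 5278 in WT T6 and 5827 to 10841 in WT T0. The 13 myeloid markers summed to 2879 to 4520 in KO T6, 22818 to 29190 in KO T0, 1248 to 2652 in WT T6 and 15562 to 21178 in WT T0. The 3 measured erythroid markers summed to 1264 to 18431 in KO T6, 1343 to 14380 in KO T0, 542 to 884 in WT T6 and 183 to 1062 in WT T0, and Hba-a1 lay below the filter level on all arrays. The 4 measured NK cell markers summed to 638 to 1245 in KO T6, 433 to 995 in KO T0, 399 to 1108 in WT T6 and 536 to 731 in WT T0. The 5 CD4 T cell markers summed to 963 to 1321 in KO T6, 1192 to 2042 in KO T0, 852 to 1069 in WT T6 and 1500.2 to 2400.0 in WT T0. Scap, the floxed gene, stood at 11.10 ± 0.04 in KO T6 against 11.57 ± 0.02 in WT T6, and at 11.01 ± 0.23 in KO T0 against 11.26 ± 0.25 in WT T0 (mean log2 ± SD, n = 3). Neither difference passed the test (limma adjusted p = 0.273 at T6 and 0.593 at T0). The floxed stretch of Scap is not named in the labels, so its probe set may lie outside that stretch. In such bulk samples, fewer cells of a type and less RNA per cell cannot be told apart.

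The question of the first comparison was how each AP-1 transcript differed between activated and quiescent cells. Fos, Fosb, Jun, Junb and Jund fell in both genotypes, Batf fell in WT, and Fosl2 and Fosl1 rose in both. In KO cells 2 members rose and 5 fell at an adjusted p under 0.05 (limma, Benjamini-Hochberg over all genes tested). Among all tested genes 20.9% were called in KO, 10.4% as higher and 10.4% as lower. In WT cells 2 members rose and 6 fell, and the background was 25.1% called, 11.3% as higher and 13.8% as lower. Centring each array on its median moved the median of all genes in WT by 0.12 and turned 1492 higher and 1810 lower calls into 1909 and 1142, with the same 8 members called in the same directions. Without Fosl1, which passed the filter through T6 alone, 1 rose and 5 fell of 7 in KO, and 1 rose and 6 fell of 7 in WT. The median member change was -1.11 in KO and -1.14 in WT, where the medians of all tested genes were -0.0036 and -0.06. The T6 and T0 arrays did not overlap for any of the 8 members in either genotype, as for 36.5% of all genes in KO and 42.8% in WT.

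**Figure D1:**
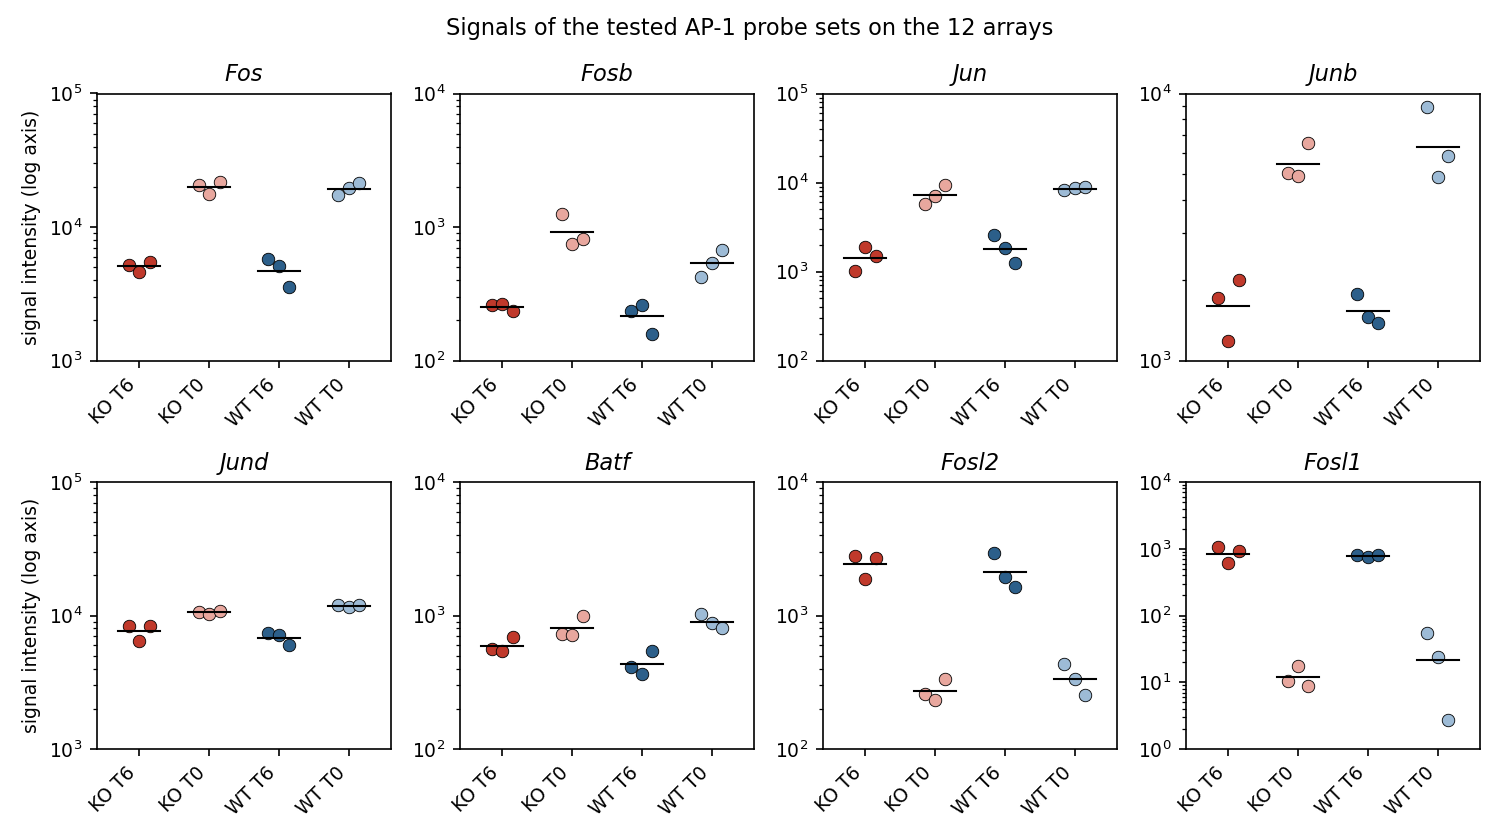
Signal intensity of the tested probe set of each of the 8 AP-1 genes on every array, on log axes that differ between panels, with KO T6, KO T0, WT T6 and WT T0 from left to right; each point is 1 array and each line the group mean of 3. Fos, Fosb, Jun, Junb, Jund and Batf lie lower at T6 than at T0 in both genotypes, and Fosl2 and Fosl1 lie higher.

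Fos encodes the founding Fos protein, which cannot form dimers with itself and needs a Jun partner. Its signals were 5187, 4612 and 5483 in KO T6 arrays, against 20562, 17596 and 21765 in KO T0 arrays. In WT they were 5782, 5140.4 and 3529.8 at T6, against 17388, 19474 and 21379 at T0. All 6 activated arrays lay far below all 6 quiescent ones. Fos fell by 1.97 ± 0.18 on the log2 scale in KO (SE, 3.91-fold, adjusted p = 6.35e-05) and fell by 2.03 ± 0.18 in WT (4.09-fold, adjusted p = 4.08e-05). Of 13156 genes it ranked 100th by fall in KO and 116th in WT.

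Fosb, a Fos relative induced by the same stimuli, had signals of 259, 264 and 234 in KO T6 arrays, against 1251, 746 and 820.0 in KO T0 arrays. In WT the signals were 237, 263 and 157 at T6, against 424, 535 and 678 at T0. The T6 arrays of the genotypes shared 1 range, whereas the KO T0 arrays all lay above the WT T0 arrays. Fosb fell by 1.80 ± 0.24 in KO (3.47-fold, adjusted p = 0.000639) and fell by 1.26 ± 0.24 in WT (2.40-fold, adjusted p = 0.0039).

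Jun encodes the Jun protein with the strongest transactivation among the 3 Jun proteins. Its tested probe set read 1005, 1881 and 1478 in KO T6 arrays, against 5713, 7114 and 9471 in KO T0 arrays. In WT it read 2544, 1824 and 1239 at T6, against 8153, 8637 and 8916 at T0. The WT T0 arrays lay close together and the WT T6 arrays far apart, yet no T6 array reached a T0 array. Jun fell by 2.35 ± 0.29 in KO (5.12-fold, adjusted p = 0.000411) and fell by 2.25 ± 0.29 in WT (4.74-fold, adjusted p = 0.000459). A second Jun probe set also fell in a fit over probe sets, by 1.35 in KO (adjusted p = 0.00035) and by 1.16 in WT (adjusted p = 0.000742), so the size of the fall differed between the Jun probe sets.

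Junb, which can oppose Jun at some promoters and drives others, read 1721, 1189 and 2001 in KO T6 arrays, against 5029, 4890.1 and 6528 in KO T0 arrays. In WT it read 1782, 1451 and 1379 at T6, against 8894, 4886 and 5834 at T0. WT T0 replicate 1 stood highest of the 12. Junb fell by 1.75 ± 0.25 in KO (3.37-fold, adjusted p = 0.000918) and fell by 2.04 ± 0.25 in WT (4.11-fold, adjusted p = 0.00032).

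Jund, the Jun gene that many resting cells transcribe steadily, changed least among the Jun genes. Its signals were 8366, 6432 and 8288 in KO T6 arrays, against 10647, 10198 and 10824 in KO T0 arrays. In WT they were 7365, 7093 and 6038 at T6, against 11900.0, 11541 and 12088 at T0. Quiescent arrays of a genotype lay within a narrow band, with an SD of 0.04 in KO T0 and 0.03 in WT T0 on the log2 scale. Jund fell by 0.47 ± 0.12 in KO (1.38-fold, adjusted p = 0.0198) and fell by 0.80 ± 0.12 in WT (1.74-fold, adjusted p = 0.00101). The call in KO was lost without KO T0 replicate 1 (adjusted p = 0.0575), without KO T0 replicate 3 (0.0612), without both KO replicates numbered 2 (0.0601), when a gene's probe sets were averaged (0.112) and when the KO arrays were fitted alone (0.077). A second Jund probe set lay near the filter level, with overlapping groups, and did not pass the test in either genotype (adjusted p = 0.507 in KO and 0.188 in WT).

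Batf had signals of 563, 542 and 693 in KO T6 arrays, against 727, 712 and 995 in KO T0 arrays. In WT it had 410.2, 363 and 539.5 at T6, against 1028, 873 and 803 at T0. The 4 groups ran from WT T0 at the top through KO T0 and KO T6 to WT T6, and of these steps only the first overlapped. Batf fell by 1.03 ± 0.18 in WT (2.04-fold, adjusted p = 0.00272). In KO its difference was -0.42 ± 0.18 (95% confidence interval -0.83 to -0.01) and did not pass the test (adjusted p = 0.142).

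Fosl2 (Fra-2), a Fos relative without the C-terminal transactivation domain of Fos, went the other way. Its tested probe set read 2784, 1890.1 and 2702 in KO T6 arrays, against 258, 233 and 333 in KO T0 arrays. In WT it read 2922, 1946 and 1637 at T6, against 432, 333 and 255 at T0. Every activated array exceeded every quiescent array several times over. Fosl2 rose by 3.08 ± 0.26 in KO (8.47-fold, adjusted p = 3.99e-05) and rose by 2.60 ± 0.26 in WT (6.08-fold, adjusted p = 9.13e-05). The second Fosl2 probe set, of lower signal, rose by 1.15 in KO (adjusted p = 0.0217) and also rose in WT (adjusted p = 0.0361). Fosl2 ranked 37th of 13156 genes by rise in KO and 50th in WT.

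Fosl1 (Fra-1) also lacks the C-terminal domain and is itself a known AP-1 target in other cells. It read 1057, 609 and 930.2 in KO T6 arrays, against 10.6, 17.4 and 8.83 in KO T0 arrays. In WT it read 797, 754 and 799 at T6, against 55.0, 24.2 and 2.76 at T0. The quiescent signals lay at or near background, with WT T0 replicate 1 the only one above the filter level. With each T0 array set to no less than its own filter level, Fosl1 was at least 15.1-fold higher at T6 than at T0 in KO and at least 12.9-fold higher in WT. Its rise passed the test in both genotypes (adjusted p = 2.91e-05 in KO and 4.86e-05 in WT), as a gene that was tested because its T6 signals were high. The fitted size depends on the constant added before the log: it was 4.94 in KO and 4.41 in WT with 16 added, 6.04 in KO and 5.49 in WT with 1 added, and 3.58 in KO and 3.25 in WT with 64 added. The other Fosl1 probe set was higher at T6 by 1.24 in KO (limma over probe sets, adjusted p = 0.0328) and by 1.65 in WT (adjusted p = 0.00809). It lay above the filter level on 3 of 3 T6 arrays and 0 of 3 T0 arrays in each genotype. It too was tested only through its T6 signals, and its sizes rest on T0 signals near background.

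**Figure D2:**
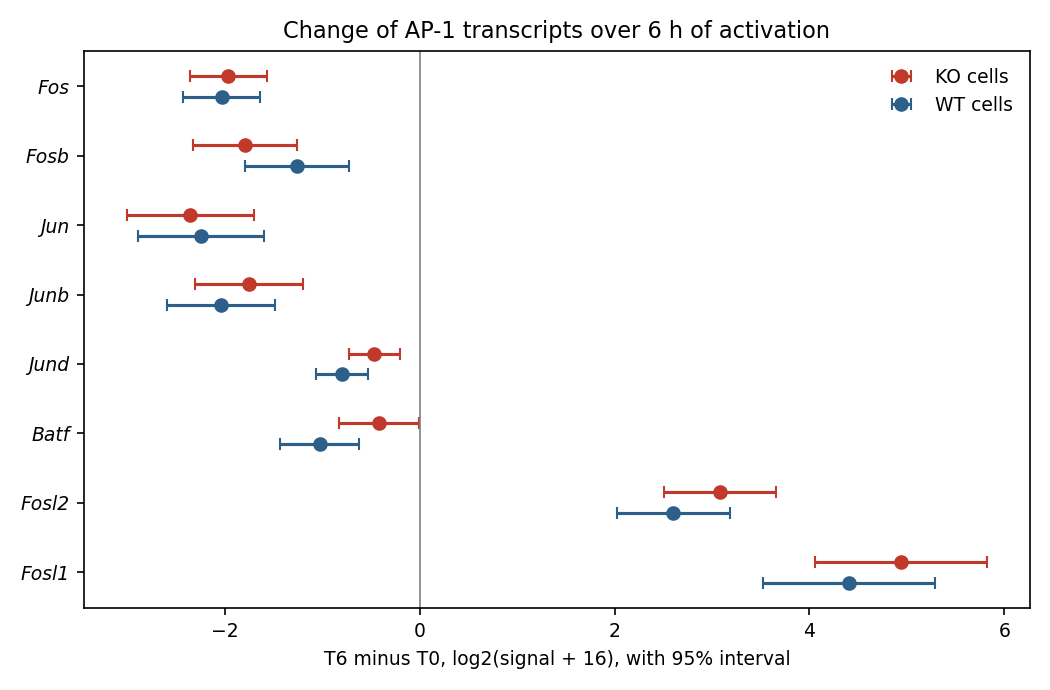
Change on activation (T6 minus T0, log2) of each of the 8 AP-1 genes in KO and WT cells, with 95% confidence intervals of the limma fit over 12 arrays. Fosl2 (3.08 in KO, 2.60 in WT) lies above 0, as does Fosl1, whose size rests on T0 signals near background, and in KO the interval of Batf (-0.83 to -0.01) comes closest to 0.

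Values that moved with activation beside the members included the myeloid and B cell markers and the Actb control of RNA quality. Of 12 tested myeloid markers 11 fell on activation in each genotype, with a median difference of -2.61 in KO and -2.74 in WT. Of 12 tested B cell markers 11 were lower in value at T6 in each genotype, with a median of -0.51 in KO and -0.73 in WT. Among them 0 were called lower in KO and 3 in WT. The difference between the 3′ and 5′ probe sets of Actb was 0.71 ± 0.09 in KO T6 against 0.36 ± 0.14 in KO T0, and 0.50 ± 0.05 in WT T6 against 0.30 ± 0.08 in WT T0 (log2, SD, n = 3). For the Gapdh control it was 0.28 ± 0.11 in KO T6 against 0.15 ± 0.15 in KO T0, and 0.13 ± 0.05 in WT T6 against 0.06 ± 0.03 in WT T0. The Gapdh values of T6 and T0 overlapped in each genotype. Of 10 CD8 T cell markers 4 fell and 1 rose in each genotype. The part of these in the AP-1 changes was not tested.

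The question of the second comparison was whether activated KO cells differed from activated WT cells in AP-1 transcripts. At T6, 0 of 8 members were called in KO against WT by limma, where 0.0988% of all tested genes were called, and 1 member (Batf) had an unadjusted p under 0.05, as had 11.8% of all genes. Differences (KO minus WT) were above 0 for 7 members and below 0 for Jun, and that of Junb lay just below 0 with median centring. Their median was 0.14, and that of all genes was 0.04.

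Batf stood highest above WT among the members at T6. Its KO signals (563, 542 and 693) all lay above its WT signals (410.2, 363 and 539.5), narrowly at the nearest pair, and 18.8% of all genes had groups that did not overlap. WT T6 replicate 3 gave the highest of the 3 WT values. Batf was 0.45 higher in KO T6 (95% confidence interval 0.04 to 0.86, 1.37-fold, unadjusted p = 0.0332) and did not pass the test over all genes (adjusted p = 0.387). Jun differed by -0.34 (interval -0.99 to 0.31, adjusted p = 0.67). For Fos the interval was -0.29 to 0.50, for Fosb -0.31 to 0.75, for Junb -0.49 to 0.62, for Jund -0.10 to 0.43, for Fosl2 -0.37 to 0.78 and for Fosl1 -0.78 to 0.99. These intervals bound the differences that 3 arrays per group allow and do not show that the genotypes were alike. The second Fosl1 probe set went the other way in a limma fit over probe sets, by -0.32 (adjusted p = 0.742). Its KO T6 arrays all lay below its WT T6 arrays.

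At T0, 0 of 8 members were called in KO against WT by limma, where 0.038% of all tested genes were called, and 1 member (Fosb) had an unadjusted p under 0.05, as had 9.78% of all genes. Differences were above 0 for Fos and Fosb and below 0 for the other 6, with a median of -0.19 and of -0.00011 over all genes. Fosb read 1251, 746 and 820.0 in KO T0 arrays, against 424, 535 and 678 in WT T0 arrays. These groups did not overlap, as for 16.6% of all genes. Fosb was 0.75 higher in KO T0 (interval 0.22 to 1.29, 1.69-fold, unadjusted p = 0.0103, adjusted p = 0.422). Jund also had groups that did not overlap, with 10647, 10198 and 10824 in KO T0 arrays, against 11900.0, 11541 and 12088 in WT T0 arrays, and differed by -0.17 (interval -0.43 to 0.10, adjusted p = 0.664). For Fos, with similar signals in both genotypes, the interval was -0.35 to 0.43.

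**Figure D3:**
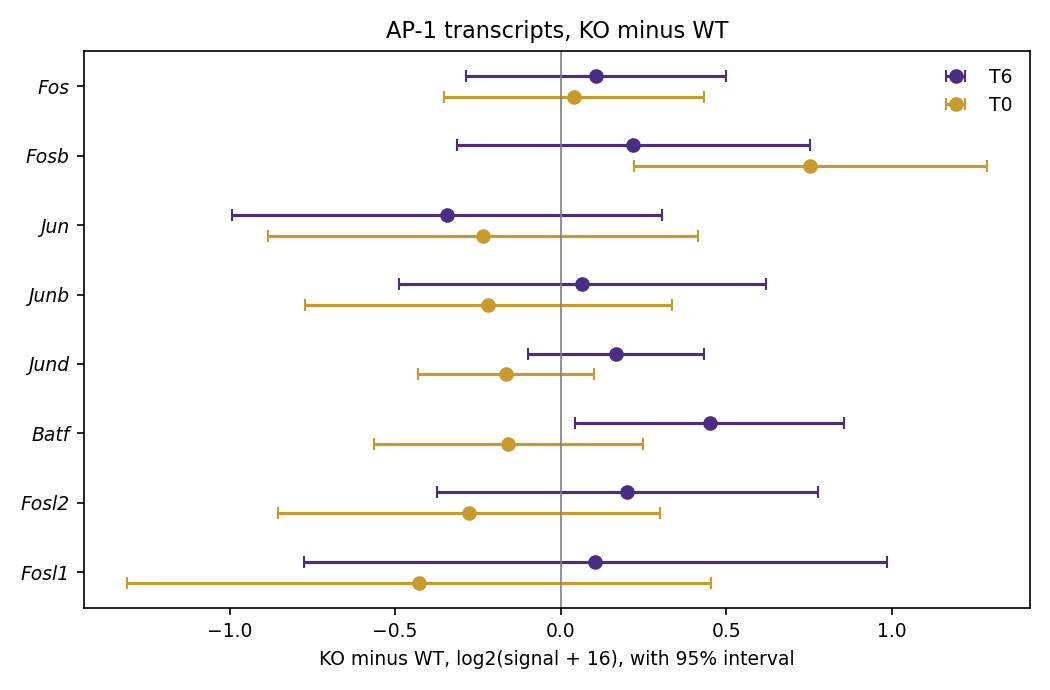
Difference between genotypes (KO minus WT, log2) of each of the 8 AP-1 genes at T6 and at T0, with 95% confidence intervals of the limma fit. The intervals that do not reach 0 are those of Batf at T6 (0.04 to 0.86) and of Fosb at T0 (0.22 to 1.29), and neither passed the test over all genes.

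The third comparison asked whether the activation change itself differed between genotypes. By limma 0 of 8 members were called, 0% of all tested genes were called and 604 genes (4.59%) had an unadjusted p under 0.05. The difference of changes (KO minus WT) was 0.61 ± 0.26 for Batf (SE, interval 0.03 to 1.18, unadjusted p = 0.0402), and it was the only member with an unadjusted p under 0.05. It was 0.33 ± 0.17 for Jund, -0.53 ± 0.34 for Fosb, 0.48 ± 0.37 for Fosl2 and 0.53 ± 0.56 for Fosl1, whose T0 signals lay near background. For Fos it was 0.07 ± 0.25, for Jun -0.11 ± 0.41 and for Junb 0.29 ± 0.35. The adjusted p was 0.9997 for each. That Batf was called on activation in WT and not in KO is therefore not a tested difference between genotypes. For the second Fosl1 probe set the difference of changes had the opposite sign, -0.41, in a limma fit over probe sets (adjusted p = 0.9996).

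Markers of other cells moved with genotype beside these values. All 12 tested B cell markers were higher in KO in value at both times, with a median difference of 1.40 at T6 and 0.71 at T0, and 0 of them were called (8 at T6 and 3 at T0 had an unadjusted p under 0.05). All 12 tested myeloid markers were higher in KO in value, with a median of 0.74 at T6, where 1 was called, and of 0.51 at T0. Both tested erythroid markers were higher in KO in value, with a median of 2.73 at T6 and 3.35 at T0, and neither was called. All 10 tested CD8 T cell markers were lower in KO in value, with a median of -0.30 at T6 and -0.25 at T0. The difference between the 3′ and 5′ probe sets of Actb ran from 0.617 to 0.793 in KO T6 against 0.448 to 0.541 in WT T6, without overlap, and from 0.234 to 0.505 in KO T0 against 0.216 to 0.369 in WT T0. That of Gapdh overlapped between genotypes at both times, with 0.151 to 0.363 in KO T6 against 0.082 to 0.172 in WT T6. KO replicate 1 had the highest B cell sum of its group at both times, and also the highest Fosb signal at T0. At T6 the highest Fosb signal in KO was that of replicate 2. WT replicate 1 also had the highest B cell sum of its group at both times, but the lowest Fosb signal of its group at T0. Without KO T0 replicate 1 the Fosb difference at T0 was 0.53 (adjusted p = 0.618). KO replicate 2 had the highest erythroid sum at both times, and it was the lowest array of its group for 6 of 8 members at T6 and for 6 of 8 at T0. The share of all genes for which it was lowest is not given here, so these counts may not be particular to AP-1. Without both arrays of KO replicate 2, the Batf difference at T6 was 0.52 (adjusted p = 0.409) and 0 members were called in KO against WT at either time. The part of these markers and of RNA quality in the differences was not tested.

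Spread between replicates also differed among the members. The range of 3 arrays was 0.35 on the log2 scale for a median gene and group. The member values below are each gene's widest over the 4 groups, so they are not directly comparable with that median. The narrowest ranges of the members ran from 0.07 for Jund to 0.49 for Fosl2. The widest range was 1.92 for Fosl1 in WT T0, where signals were near background. Among members above background everywhere it was 1.03 for Jun in WT T6, 0.86 for Junb in WT T0, 0.83 for Fosl2 in WT T6 and 0.73 for Fosb in KO T0. Jund varied least, with a widest range of 0.38. WT T6 replicate 3, the array with the lowest median signal (61.3), was the lowest of its group for 6 of 8 members. The share of all genes for which it was lowest is not given here either. Without WT T6 replicate 3, Batf differed by 0.61 between genotypes at T6 (limma adjusted p = 0.399) and Fos by -0.10.

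Genes around AP-1 were followed in lists of relatives, upstream factors, partners and targets, and in each list 0 genes were called by limma in KO against WT at either time. Of the 75 listed genes tested, 12 at T6 and 12 at T0 (16% each) had an unadjusted p under 0.05, where the share of all genes was 11.8% at T6 and 9.78% at T0. On activation 30 of the 75 were called in KO and 36 in WT. The share of all tested genes called on activation, the background for each list count below, was 20.9% in KO and 25.1% in WT. The first list held bZIP relatives that bind related sites. Of 15 listed relatives 14 were measured: 3 rose and 1 fell in KO, and 4 rose and 2 fell in WT. The repressors Bach2 (1.17 in KO, 1.09 in WT) and Bach1 (1.11 in KO, 1.16 in WT) and the small Maf protein gene Mafg (1.52 in KO, 1.42 in WT) rose. Maf fell by 1.19 in KO and fell by 1.25 in WT. Batf3, a relative of Batf, fell by 1.15 in WT (adjusted p = 0.0127) and differed by -0.79 in KO (adjusted p = 0.0704). The listed relative without a probe set of its own is not given.

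Of 11 measured factors that act on Fos and Jun transcription, as activators or repressors, 1 rose and 2 fell in each genotype, near the share of all genes called. Crem, whose inducible isoform ICER represses cAMP-responsive promoters, rose by 3.57 in KO (adjusted p = 6.36e-05) and rose by 3.50 in WT (adjusted p = 5.51e-05). Creb1, an activator at the same kind of site, fell by 0.82 in KO (adjusted p = 0.000845) and fell by 0.65 in WT (adjusted p = 0.00256). Elk3, a partner of serum response factor, fell by 0.43 in KO and fell by 0.36 in WT. Srf itself differed by -0.37 in KO and -0.38 in WT and did not pass the test (adjusted p = 0.24 and 0.207).

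Of 17 listed genes of the MAP kinase path 12 had a probe set of their own. Of these, 1 rose and 2 fell in KO, and 1 rose and 3 fell in WT, also not far from the share of all genes called. Map2k3, a kinase of p38, rose by 1.71 in KO and by 2.31 in WT, while Map2k6, another kinase of p38, fell by 1.40 in KO and fell by 1.55 in WT. Mapk14, p38 alpha itself, fell by 0.70 in KO and fell by 0.55 in WT. Rasgrp1, which couples the antigen receptor to Ras, fell by 0.58 in WT (adjusted p = 0.00447) and differed by -0.26 in KO (adjusted p = 0.143).

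Of 5 measured partners of AP-1 on composite elements, 2 rose and 1 fell in KO, and 3 rose and 2 fell in WT. Irf4, the partner of Batf and Jun dimers, rose by 4.21 in KO (adjusted p = 3.01e-06) and rose by 4.45 in WT (adjusted p = 1.89e-06). Irf8 rose by 1.45 in KO and by 2.29 in WT. Nfatc2, the NFAT factor of resting T cells, fell by 1.25 in KO and fell by 1.23 in WT, and Nfatc1, the inducible one, rose by 0.38 in WT (adjusted p = 0.0235) and differed by 0.07 in KO (adjusted p = 0.714).

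Of 10 measured genes of Fos and Jun mRNA decay and protein turnover, 1 rose and 3 fell in each genotype. Zfp36 and Zfp36l2, which bind AU-rich elements and speed the decay of such mRNAs, fell by 0.87 and 1.05 in KO and fell by 0.75 and 0.95 in WT. Fbxw7, a ubiquitin ligase subunit that recognises phosphorylated Jun, rose by 0.45 in KO and by 0.49 in WT. Det1, part of a ligase that targets Jun, fell by 0.42 in KO and fell by 0.26 in WT.

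Of 10 known AP-1 target genes of T cells, 9 rose in KO and 8 in WT, with a median of 3.66 in KO and 3.27 in WT. Il2 rose by 5.10 in KO and by 4.44 in WT, Tnf by 4.08 in KO and 4.21 in WT, Il2ra by 3.90 in KO and 4.35 in WT, and Ifng by 3.42 in KO and 3.14 in WT. At T0 Il2 lay near background, as Fosl1 did, with a mean log2 signal of 4.82 in KO and 4.96 in WT. Il2ra was also weak there (6.30 in KO and 5.92 in WT). The sizes of such rises depend on the constant added, and Il2 was tested because its T6 signals were high. The counts and medians of the list include these genes. Cd69, an early surface marker, differed by 0.25 in KO and by 0.24 in WT and did not pass the test (adjusted p = 0.186 and 0.181). Gzmb rose by 1.06 in KO (adjusted p = 0.014) and differed by 0.47 in WT (adjusted p = 0.21).

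Tissue dissociation and cell sorting are known to induce Fos and Jun together with other early genes, such as the phosphatase gene Dusp1. Of 13 genes of this stress response, 3 rose and 1 fell in KO, and 4 rose and 2 fell in WT on activation. In value, called or not, 10 of the 13 were lower at T6 in KO and 8 in WT. The median difference of the list was -0.24 in KO and -0.30 in WT. Dusp1 fell by 2.77 in KO (adjusted p = 1.46e-05) and fell by 2.96 in WT (adjusted p = 9.21e-06). In contrast Nr4a1 rose by 2.74 in KO and by 3.06 in WT, Egr1 by 0.95 in KO and 1.43 in WT, and Ier3 by 1.46 in KO and 1.57 in WT. These genes are also immediate early targets of the antigen receptor, so the list marks both. The part of cell preparation in the T0 levels of Fos, Fosb, Jun and Junb was not tested.

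**Figure D4:**
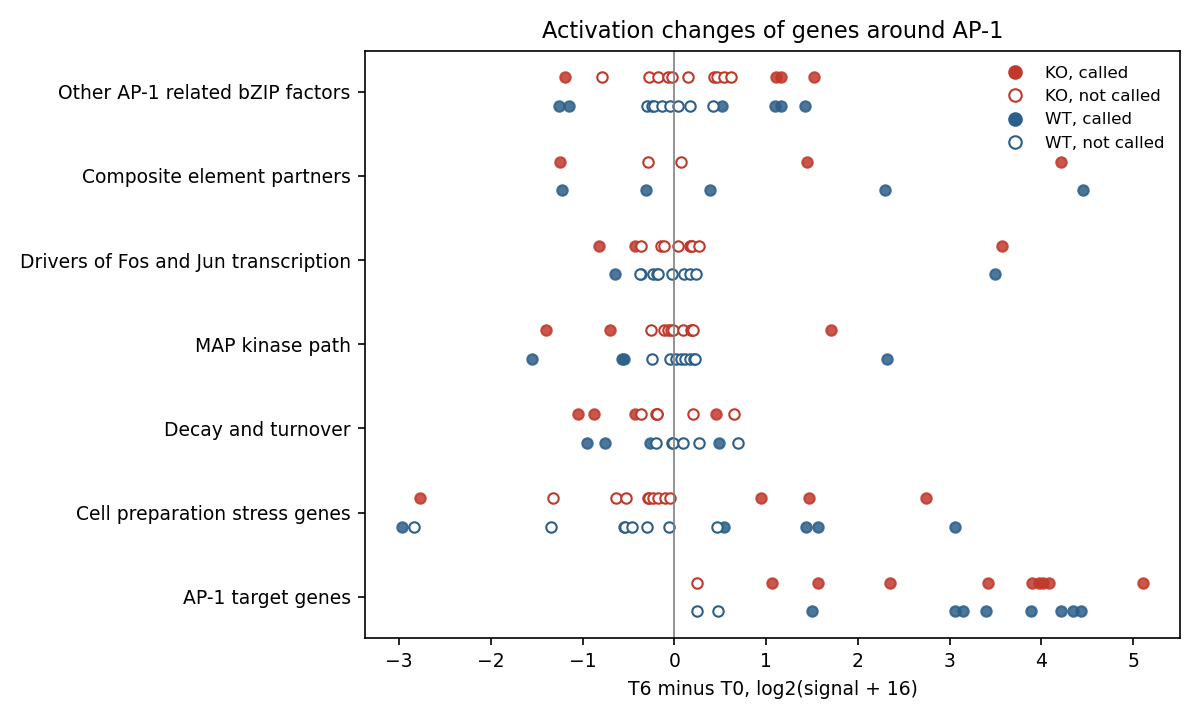
Change on activation (T6 minus T0, log2) of genes in the lists around AP-1, with 1 point for each tested gene in KO (upper) and in WT (lower), filled where called. The AP-1 target genes all lie above 0, with medians of 3.66 in KO and 3.27 in WT, and the other lists lie on both sides of 0. The size for Il2 rests on T0 signals near background.

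Genes whose levels followed each member most closely over the 12 arrays were ranked by Pearson correlation on the log2 scale. The arrays fall into quiescent and activated groups, and the gap between them enters each value. Fos was closest to Rab3a (0.988), Dusp1 (0.986) and Cd72 (0.985), a B cell coreceptor gene. Jun was closest to Ubash3a (0.985), Fcgrt (0.970) and Trpv2 (0.969), and Junb to Dnajb9 (0.983), Sbk1 (0.982) and Il10rb (0.980). Fosb was closest to Tbc1d9b (0.961), Hes1 (0.960) and Cpt1a (0.959), and Jund to Phf12 (0.982), Dock10 (0.974) and Fchsd2 (0.973). Batf followed other genes least closely, with Pex2 (0.958), Clk4 (0.936) and Hap1 (0.933) at its head. Fosl2 was closest to Tbx21 (0.996), the gene of the effector factor T-bet, Crem (0.993) and Plagl1 (0.991). Fosl1 was closest to Mir155hg (0.993), Mad2l2 (0.990) and Spry1 (0.987). After the group means were taken out, these correlations were lower, between 0.489 and 0.798 for the genes named with Fos, 0.483 and 0.632 for Fosb, 0.504 and 0.853 for Jun, 0.747 and 0.838 for Junb, 0.762 and 0.867 for Jund, 0.651 and 0.890 for Batf, 0.804 and 0.965 for Fosl2 and 0.736 and 0.871 for Fosl1.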

How the data were processed

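PolyA RNA from 12 samples was labelled with biotin and hybridised to Affymetrix arrays, per the labels' protocols. The values are linear signal intensities that the authors deposited, made with GCOS per the submitters' processing notes. The version, background correction and probe summary are not given in the sources used here. The mean signal between percentiles 2 and 98 was 499.8 to 499.9 on every array, so arrays had been scaled to a common level. The number of arrays limits the precision.

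Of 45101 probe sets, 64 were controls, 34945 carried 1 gene symbol, 932 several and 9160 none. Symbols came from the platform annotation, updated through RefSeq. Signals were taken as log2(signal + 16), which understates changes of weak genes, with no further normalization. Each gene took its probe set of highest mean, and was kept if 3 or more arrays exceeded their percentile 40. The test of the 13156 genes was limma (version 3.58.1, R version 4.3.3; lmFit, eBayes, two-sided) with 4 group coefficients over all 12 arrays. Calls were made below 0.05 after Benjamini-Hochberg adjustment, and errors of differences are standard errors of this fit. The fit was tested on simulated data.

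All 8 members and all their probe sets are named, with up to 4 genes of each list per comparison by smallest p (named with their values also in the other genotype), and the 3 genes of highest correlation with each member. Members and lists were chosen with earlier results of these data known. Array pairs of the same group correlated at 0.969 to 0.978 and 0 pairs were identical. With group means subtracted, same-numbered T6 and T0 arrays were correlated over genes. The values were 0.18, 0.46 and 0.38 in KO and 0.23, -0.06 and -0.11 in WT. The main fit did not pair arrays in either genotype. The fit with a replicate block, which used the numbers in both genotypes, is an alternative. Other alternatives changed the added constant, filter, scaling, probe choice, variance model and arrays.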

Additional observations from a re-analysis of the deposited data

How the results depend on the processing

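The number of members called stayed at 0 in KO against WT at T6, at T0 and for the difference of changes, and at 8 for WT activation, under each of 24 alternatives (23 for the difference of changes). For KO activation it was 6 or 7, where the call of Jund was lost in 5 of 24 alternatives, as given with its values above. All other activation calls of members kept their direction and their side of the threshold. The replicate block changed no member's call: with it 7 members were called for KO activation, 8 for WT activation and 0 in the other comparisons, and Jund in KO had an adjusted p of 0.037. Over all genes the block gave 2665 calls against 2746 for KO activation and 24 against 13 for KO against WT at T6. Leaving out KO T0 replicate 2 and KO T6 replicate 2 together was chosen after seeing the data.

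Among differences between genotypes that passed no test, some changed sign. With a gene's probe sets averaged Fosl1 at T6 was -0.11, and with median centring Junb at T6 was -0.00092. With single arrays left out, the values at T6 ran from -0.101 to 0.25 for Fos, -0.0549 to 0.33 for Fosl1 and -0.0938 to 0.28 for Junb. At T0 they ran from -0.0364 to 0.13 for Fos, -0.93 to 0.0285 for Fosl1 and -0.41 to 0.0256 for Junb. For the difference of changes they ran from -0.142 to 0.21 for Fos and -0.37 to 0.142 for Jun. The cause was not tested. Over all alternatives the Batf difference at T6 was 0.33 to 0.61 (adjusted p 0.295 to 0.597), and the Fosb difference at T0 was 0.53 to 0.92 (adjusted p 0.321 to 0.62).

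The count over all genes was less stable in KO against WT. At T6 it was 13, and it became 6 with 1 added, 5 with no filter, 33 with the filter at percentile 60, 8 with quantile normalization, 21 with probe sets averaged, 141 with all probe sets fitted, 29 with a trended robust variance, 0 with T6 arrays fitted alone and 2 to 16 with arrays left out. At T0 it was 5, and lay between 1 and 10 over all alternatives. Fitting all probe sets gave 5578 calls against 2746 for KO activation and 6208 against 3302 for WT activation. Signals of Fosl1 at T0 and of the second Jund probe set lay too near background for an exact size to be read from them.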

Other observations

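Fos, Jdp2 and Batf lie next to each other on chromosome 12 in the RefSeq gene order, with Jdp2 the 1 protein-coding gene between Fos and Batf. Jdp2 encodes a bZIP repressor that pairs with Jun proteins. Unlike Fos it was not called on activation, with a difference of -0.17 in KO (adjusted p = 0.546) and -0.14 in WT (adjusted p = 0.631). Its mean log2 signal was 7.93 in KO T6 against 7.24 in WT T6, and 8.10 in KO T0 against 7.37 in WT T0. The differences of 0.69 at T6 and 0.73 at T0 did not pass the test (limma adjusted p = 0.191 and 0.285).

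Tbx21, the closest neighbour of Fosl2 over the arrays, had a mean log2 signal of 10.84 in KO T6 against 9.56 in KO T0, and of 10.74 in WT T6 against 9.61 in WT T0. Crem had 11.49 in KO T6 against 7.92 in KO T0, and 11.23 in WT T6 against 7.74 in WT T0.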
